A study of Mus musculus with 11 samples.

Results

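The genes described are the β subunits of the sodium-potassium pump, Atp1b1, Atp1b2 and Atp1b3, which are 3 of 8252 genes named on the arrays. All probe sets annotated to 1 of these symbols alone were taken, which gave 5 of the 12488 probe sets on each array. Of these 5, 3 passed a filter on low signal (a mean signal of about 25.8 or more), 1 for each gene, and 7453 probe sets in all were tested. The catalytic α subunits were not analysed here, so the values cover the β side of the pump.

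The samples were whole brains of 5 mice homozygous for a null allele of Chrnb4, against those of 6 wild-type littermates, with 1 array per mouse. Chrnb4 encodes β4, a subunit of nicotinic acetylcholine receptors, which are cation channels. All mice were of strain C57BL/6J. The null mice were 3 females, aged 7, 8 and 8 weeks, and 2 males, both aged 9 weeks. The wild-type mice were 2 females, aged 7 and 6 weeks, and 4 males, aged 9, 8, 6 and 6 weeks. Animal numbers begin with the letters LT in 3 wild-type mice, all of them aged 6 weeks, and with B4 in the other 3 wild-type mice and all 5 null mice. The labels do not say what these letters stand for, and letters and age cannot be told apart. The sources used here do not say how the null allele was made, and the genotype was not checked on the arrays, since Chrnb4 was not analysed here.

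The sodium-potassium pump moves sodium out of cells and potassium in at the cost of ATP, and in brain it keeps up the gradients on which action potentials, synaptic currents and transmitter uptake run. Its α subunit carries the catalytic cycle, while the β subunit is a glycoprotein that the α subunit needs to fold, to reach the surface and to bind potassium normally. Atp1b1 encodes the β1 subunit, widespread and abundant in neurons. Atp1b2 encodes β2, also known as the adhesion molecule on glia, found on astrocytes and in part on neurons, and Atp1b3 encodes the more widely distributed β3.

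Atp1b1 lies at chr1:164437099-164458355, Atp1b2 at chr11:69599728-69605978 and Atp1b3 at chr9:96332655-96364431 in GRCm38.p6. Atp1b3 shares its chromosome with the mutated gene Chrnb4 (chr9:55028154-55048953), and 41.3 Mb holding 308 protein-coding genes separate them. The 250 bases before the start are shown for the 2 members that RefSeq's promoter table for this build holds, because the mean signals of both were higher in the wild-type brains with LT numbers. Capitals mark matches on either strand to the TATA-box motifs TATATA and, as a variant, TATAAA, to the CCAAT box and to the Sp1-type motif GGGCGG. Both genes lie on the minus strand, and the windows are chr1:164458356-164458605 and chr9:96364432-96364681.
Atp1b1: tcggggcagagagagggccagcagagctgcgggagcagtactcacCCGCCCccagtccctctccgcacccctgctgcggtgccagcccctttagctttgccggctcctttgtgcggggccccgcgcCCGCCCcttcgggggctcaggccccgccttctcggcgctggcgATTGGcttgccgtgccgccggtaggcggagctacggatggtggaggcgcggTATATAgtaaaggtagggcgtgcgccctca
Atp1b3: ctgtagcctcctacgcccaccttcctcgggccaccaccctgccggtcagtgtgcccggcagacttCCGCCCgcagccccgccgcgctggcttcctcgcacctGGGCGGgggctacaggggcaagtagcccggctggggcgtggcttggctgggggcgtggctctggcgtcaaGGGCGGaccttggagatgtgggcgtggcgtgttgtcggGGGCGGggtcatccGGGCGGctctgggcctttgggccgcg
The Atp1b1 window held 1 TATATA, whose first base lay 30 bases before the start, 1 CCAAT box on the other strand, 81 bases before, and 2 GGGCGG motifs on the other strand, 205 and 124 bases before. The Atp1b3 window held 5 GGGCGG motifs, with first bases at 185 (on the other strand), 148, 78, 40 and 26 bases before the start, and none of the other 3 motifs. None of the matches overlapped. Of 32851 promoters of the same length, 5.25% held the first of these motifs, 12.4% the variant TATA-box motif, 33.8% the CCAAT box and 32.7% the GGGCGG motif. The 2 windows were rich in G and C, at 70.4% for Atp1b1 and 73.6% for Atp1b3 against a median of 52.4% over all promoters. RefSeq gives a further start for Atp1b3, whose window (chr9:96363716-96363965) is 76.8% G and C and holds none of the 4 motifs.

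Atp1b2 was the member that varied most, and it stood highest in the 2 male null brains. Its brighter probe set had signals of 133.9, 140.3 and 99.6 in the 3 female null brains and 358.5 and 612.8 in the 2 male null brains. In wild-type brains the lowest signal was 82.9, the median 137.6 and the highest 341.4. The 2 male null brains lay above all 9 other brains, as did 20.7% of the probe sets tested, and the 3 female null brains lay inside the wild-type range. Atp1b1 was less variable than Atp1b2. Its brighter probe set had 329.6, 345.7 and 397.0 in female null brains and 432.3 and 406.6 in male null brains. In wild-type brains it ran from 272.9 to 513.5, with a median of 344.45. All 5 null values lay inside that range. Atp1b3, with a single probe set, had 1766, 1924 and 1875 in female null brains and 1683 and 1494 in male null brains. In wild-type brains it ran from 1534 to 2735, with a median of 2218.5. Of the null brains, 1 male lay just below the wild-type range and the other 4 lay in its lower part.

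**Figure D1:**
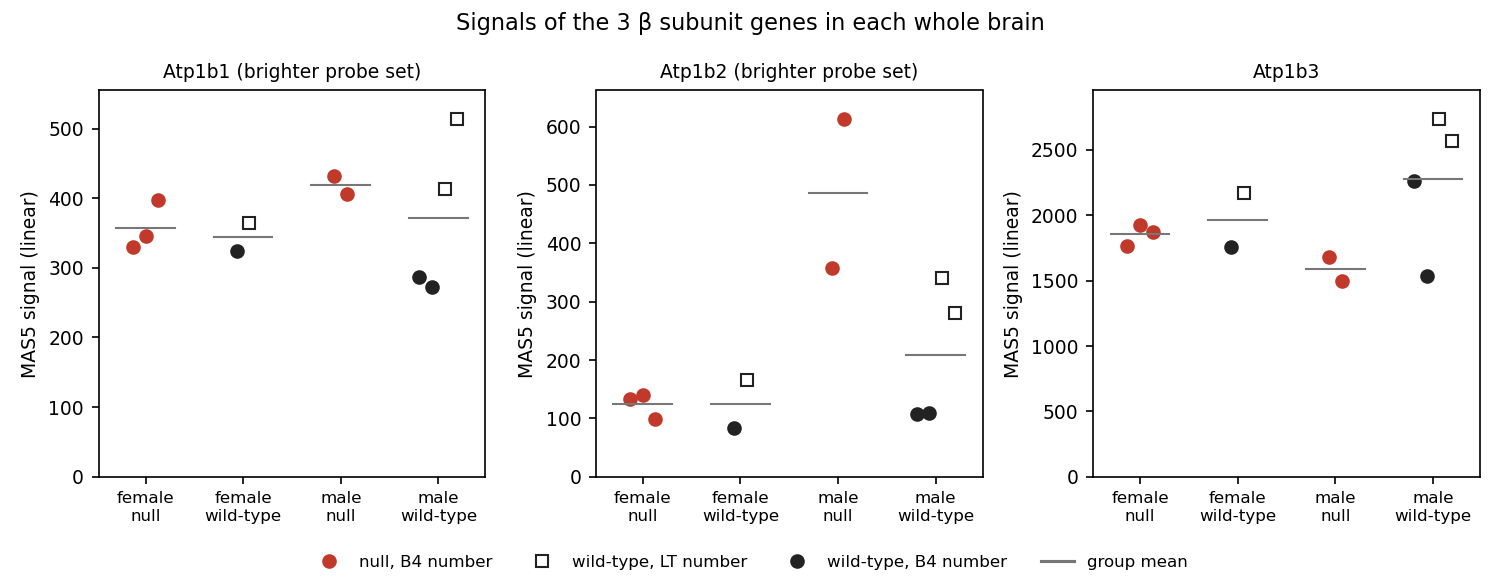
MAS5 signal (linear scale) of the 3 tested probe sets in each of 11 brains, by sex and genotype. Each point is 1 mouse, open squares are wild-type mice with LT numbers and lines are group means. Atp1b2 is highest in the 2 male null brains (358.5 and 612.8), and the open squares are the highest wild-type points of their sex in all 3 panels.

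Over the 11 arrays the SD of log2 signal was 0.94 for Atp1b2, which is larger than that of 96.7% of the probe sets tested. For Atp1b1 it was 0.27 and for Atp1b3 0.29, both under the median of 0.33. Atp1b2 also varied widely without any null mouse: among the 6 wild-type brains its SD was 0.82, above that of 95.6% of probe sets. For Atp1b1 it was 0.34 and for Atp1b3 0.32 among these brains, both above the median of 0.28. The brighter Atp1b1 probe set carries the suffix f, which marks probes that can bind related sequences, and its signal may include other transcripts.

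The other 2 probe sets were dim and did not pass the filter. The dimmer one of Atp1b1 had 29.7, 8.5 and 31.3 in female null brains, 19.9 and 18.6 in male null brains and 3.7 to 30.8 in wild-type brains. The dimmer one of Atp1b2 had 3.0 to 12.1 in null brains and 3.8 to 7.8 in wild-type brains, close to the floor of 3.1 to which lower signals were raised. Fitted without the filter, the genotype difference was 0.71 (SE 0.62, limma adjusted p = 0.59) for Atp1b1 and 0.17 (limma adjusted p = 0.849) for Atp1b2 on these probe sets. Neither dim probe set can show whether the brighter one of its gene measured the same change. In the wild-type brains the dimmer Atp1b1 probe set was lower with LT numbers (8.33 ± 5.92) than with B4 numbers (21.9 ± 10.4, SD, n = 3 each), the opposite order to that of the brighter one given below.

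The first comparison asked whether loss of β4 changed these genes in the brain as a whole, with sex as a covariate because the sexes are unevenly spread over the genotypes. None of the 3 members passed limma's adjusted threshold of 0.05, nor did any at an unadjusted threshold of 0.05. Over all tested probe sets 0.0268% passed the adjusted and 23.1% the unadjusted threshold. Atp1b2 averaged 269.0 ± 218 in null brains and 181.2 ± 106 in wild-type brains (SD, n = 5 and 6), a log2 difference of 0.75 (SE 0.37, 95% interval -0.05 to 1.55, limma adjusted p = 0.243). Atp1b1 averaged 382.2 ± 43.1 in null brains and 362.6 ± 89.9 in wild-type brains, a log2 difference of 0.14 (SE 0.17, 95% interval -0.22 to 0.50, limma adjusted p = 0.622). Atp1b3 averaged 1748 ± 170 in null brains and 2171 ± 461 in wild-type brains, a log2 difference of -0.29 (SE 0.16, 95% interval -0.63 to 0.05, limma adjusted p = 0.28). The intervals allow a rise of Atp1b2 up to 1.55 and a fall of Atp1b3 of 0.63 on the log2 scale, so they bound the change rather than show its absence. In whole brain, fewer cells of a type and less RNA per cell cannot be told apart.

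Within males, Atp1b2 rose in the null brains and passed the test. It averaged 485.65 ± 180 in male null brains (n = 2) and 209.5 ± 120 in male wild-type brains (n = 4), a log2 difference of 1.36 (SE 0.46, 95% interval 0.37 to 2.34, limma adjusted p = 0.0371), or 2.56-fold. It was 1 of 3 members to pass there, against 32.6% of all probe sets tested, and its 2 male null signals lay above all 4 male wild-type signals, as for 27.1% of probe sets. The call was lost without wild-type mouse 1 (1.10, adjusted p = 0.0795), wild-type mouse 2 (1.11, adjusted p = 0.0698), null mouse 1 (1.74, adjusted p = 0.0613) or null mouse 2 (0.97, adjusted p = 0.285). It was also lost with each array centred on its median (1.07, adjusted p = 0.0736) and with no signal filter (adjusted p = 0.121). Atp1b3 averaged 1588.5 in male null brains and 2275.5 ± 531 in male wild-type brains, a log2 difference of -0.49 (SE 0.19, 95% interval -0.91 to -0.07, limma adjusted p = 0.073). It passed without wild-type mouse 2 (-0.67, adjusted p = 0.00241) and after median centring (-0.77, adjusted p = 0.00469). Atp1b1 differed by 0.22 (SE 0.22, limma adjusted p = 0.473), and centring turned its sign (-0.060).

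The 2 male null arrays stood apart from the rest as arrays. Their median signals were 56.3 and 58.3, against 43.6 to 49.75 on the other 9, so the array medians differed by 0.28 on the log2 scale between male null and male wild-type arrays. Their ratio of Gapdh signal at the 3′ to the 5′ end, a measure of RNA integrity and labelling length, was 0.859 and 0.798. It was 2.19 to 3.58 on female null arrays and 3.57 to 5.92 on wild-type arrays. With the log2 of the Gapdh ratio as a covariate the genotype differences of the whole set of mice were 0.079 for Atp1b1 (SE 0.28), 0.0062 for Atp1b2 (SE 0.59) and 0.045 for Atp1b3 (SE 0.24). The ratio ran with genotype, so this fit can hardly separate the 2, and its estimates are imprecise. The part of RNA quality in the male difference was not tested.

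Within females, the genotypes had the same mean for Atp1b2, 124.6 ± 21.9 in female null brains (n = 3) and 124.6 ± 59.0 in female wild-type brains (n = 2). The log2 difference was 0.070 (SE 0.48, 95% interval -0.97 to 1.11, limma adjusted p = 0.996). Of the wild-type females 1 had an LT number (166.3) and 1 a B4 number (82.9), while all null females had B4 numbers. With the letters as a block the Atp1b2 difference was 0.74 (SE 0.26, limma adjusted p = 0.956). Without that block, Atp1b1 differed by 0.051 (SE 0.23) and Atp1b3 by -0.074 (SE 0.21), each with a limma adjusted p of 0.995. In the fit without the block, 0% of probe sets passed in females and 4.13% had an unadjusted p under 0.05, none of the members among them. The interaction, which subtracts the male from the female genotype difference, was -1.29 for Atp1b2 (SE 0.66, limma adjusted p = 0.208), -0.17 for Atp1b1 (adjusted p = 0.767) and 0.41 for Atp1b3 (adjusted p = 0.351). None of the members passed, against 15.9% of all probe sets and 30.9% at an unadjusted p under 0.05. So for none of the 3 genes was the male difference shown to depart from the female one, except that Atp1b3 passed without wild-type mouse 2 (0.59, limma adjusted p = 0.0453).

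**Figure D2:**
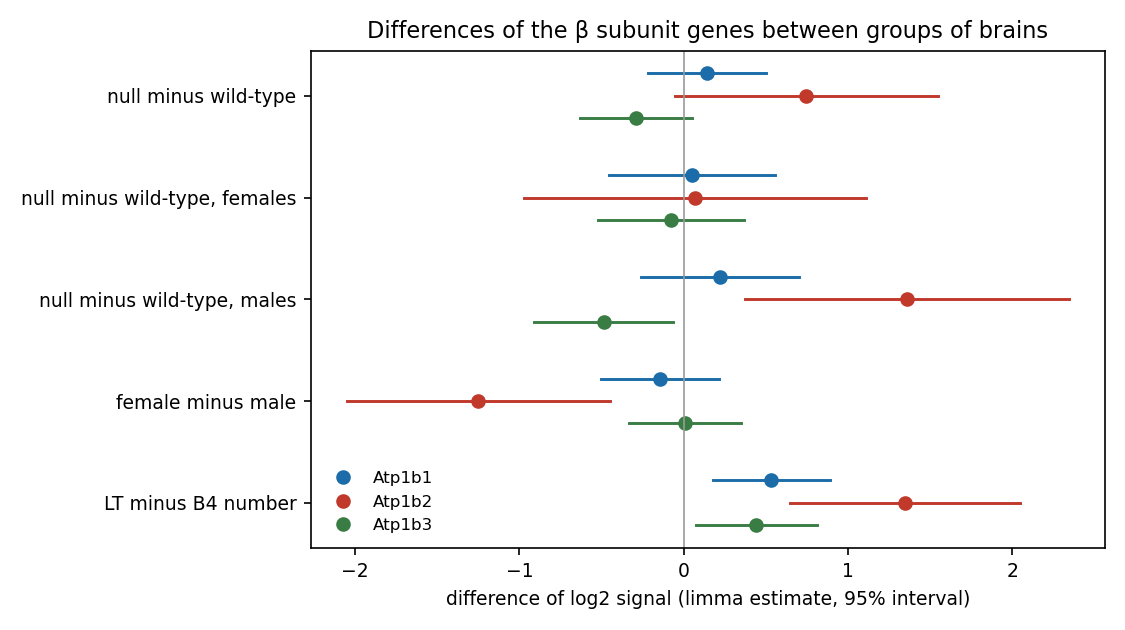
Limma estimates of the difference of log2 signal for the 3 tested probe sets, with 95% intervals, for the genotype comparison over all mice and within each sex, for sex and for the letters of the animal number. Of the genotype intervals, that of Atp1b2 in males clears 0 on the higher side (0.37 to 2.34) and that of Atp1b3 in males on the lower side (-0.91 to -0.07). All 3 genes lie above 0 for LT minus B4.

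The mean signals of all 3 genes were higher in wild-type brains with LT numbers, though none passed the adjusted threshold in the fit of all mice. This comparison was chosen after the signals had been seen. Among wild-type mice Atp1b2 had 341.4, 166.3 and 280.1 in brains with LT numbers, against 107.5, 108.9 and 82.9 in brains with B4 numbers. Atp1b1 had 412.6, 364.7 and 513.5 with LT numbers, against 287.4, 272.9 and 324.2 with B4 numbers. Atp1b3 had 2735, 2172 and 2568 with LT numbers, against 2265, 1534 and 1754 with B4 numbers. For Atp1b2 and Atp1b1 the 2 sets of 3 brains did not overlap, with LT higher, as for 9.24% of probe sets tested, while for Atp1b3 1 of the B4 brains lay above the lowest LT brain. The mean of Atp1b2 was 262.6 ± 88.9 with LT and 99.8 ± 14.6 with B4 numbers, that of Atp1b1 430.3 ± 76.0 with LT and 294.8 ± 26.4 with B4 numbers, and that of Atp1b3 2492 ± 289 with LT and 1851 ± 375 with B4 numbers (SD, n = 3 each).

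In a fit with genotype and sex, the LT minus B4 difference was 1.34 for Atp1b2 (SE 0.32, 95% interval 0.64 to 2.04, limma adjusted p = 0.0897), 0.53 for Atp1b1 (SE 0.16, limma adjusted p = 0.187) and 0.44 for Atp1b3 (SE 0.17, limma adjusted p = 0.331). None of the members passed the adjusted threshold, against 0.47% of probe sets, and all 3 had an unadjusted p under 0.05, against 11.1%. Without the 2 male null mice Atp1b2 passed (1.34, limma adjusted p = 0.00821), when 2.42% of probe sets did, and it passed in the 6 wild-type mice alone (limma adjusted p = 0.0204), when 0.872% did. It passed likewise without wild-type mouse 3 (1.74, adjusted p = 0.0314) or without null mouse 2 (1.34, adjusted p = 0.0398). Of the 3 LT brains 2 came from males and 1 from a female, the same split as in B4 wild-type brains. The Gapdh ratio overlapped between them, at 3.57 to 5.92 with LT and 3.87 to 4.35 with B4 numbers.

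Because all null mice carry B4 numbers, the genotype difference was also taken against the B4 wild-type mice alone. In these 8 mice it was 1.45 for Atp1b2 (SE 0.31, limma adjusted p = 0.0721), 0.39 for Atp1b1 (SE 0.15, adjusted p = 0.136) and -0.099 for Atp1b3 (SE 0.15, adjusted p = 0.711). None passed, when 0.349% of probe sets did, and 2 of 3 had an unadjusted p under 0.05, against 24.7%. The Atp1b2 difference was thus 1.45 rather than 0.75, and that of Atp1b3 -0.099 rather than -0.29. With the letters as a block in all 11 mice the values were close to these, at 1.42 for Atp1b2 (adjusted p = 0.0918), 0.41 for Atp1b1 (adjusted p = 0.204) and -0.071 for Atp1b3 (adjusted p = 0.815). With age as a covariate they were 1.46 for Atp1b2, 0.44 for Atp1b1 and -0.070 for Atp1b3.

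Among B4 males the separation of Atp1b2 was wider, at 358.5 and 612.8 in null brains against 107.5 and 108.9 in wild-type brains. The log2 difference was 2.12 (4.33-fold, limma adjusted p = 2.95e-04). Atp1b1 had 432.3 and 406.6 in these null brains against 287.4 and 272.9 in these wild-type brains, a log2 difference of 0.58 (1.5-fold, limma adjusted p = 0.0149). Atp1b3 differed by -0.23 (limma adjusted p = 0.341). In this fit 2 of 3 members passed, against 30.3% of all probe sets tested. In B4 females the Atp1b2 difference was 0.57 and that of Atp1b1 0.14 and neither passed, with 1 wild-type female to compare. With the 2 male null mice left out of the B4 set, and sex not fitted, the differences were 0.32 for Atp1b2, 0.28 for Atp1b1 and 0.021 for Atp1b3 (limma adjusted p between 0.977 and 0.997). That set held 3 female null mice against 2 male and 1 female wild-type mice, so these values mix genotype with sex. None passed there, nor did any probe set, with 310 of 7453 at an unadjusted p under 0.05.

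**Figure D3:**
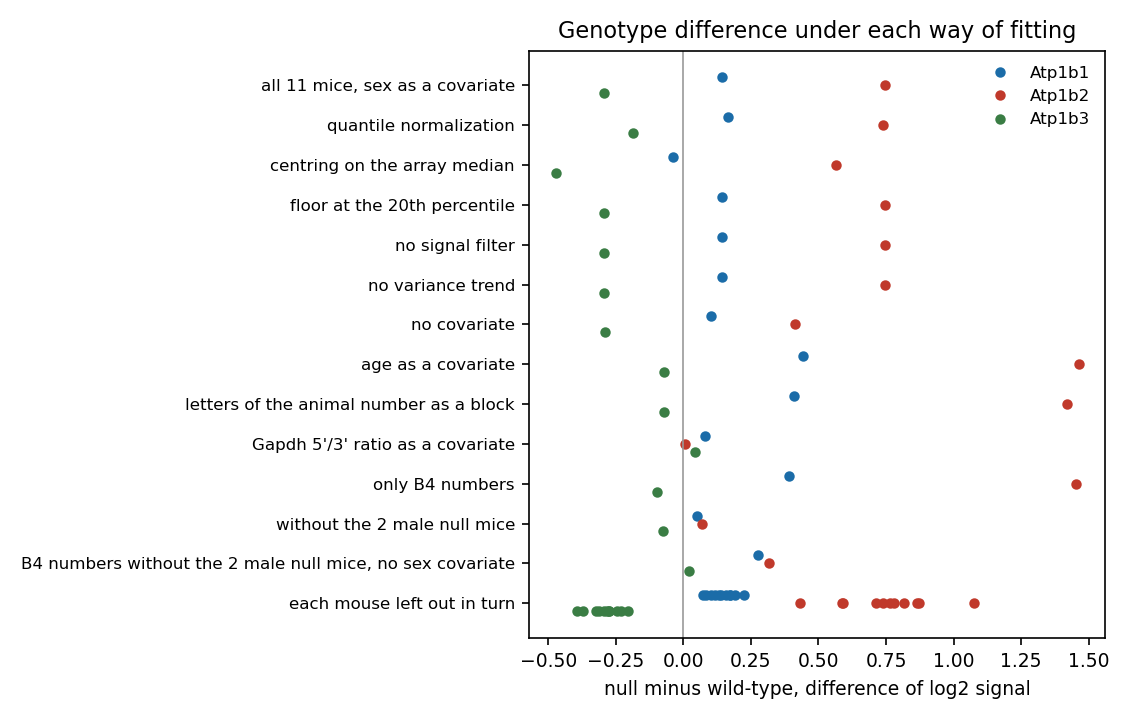
Genotype difference (null minus wild-type, log2 signal) of each gene under each way of fitting, with 1 point per fit and, in the lowest row, 1 point for each mouse left out. Atp1b2 moves most, between 0.0062 with the Gapdh ratio (SE 0.59) and 1.46 with age (SE 0.38) as a covariate.

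Sex was compared with genotype as a covariate. Atp1b2 had signals of 133.9, 140.3 and 99.6 in null and 82.9 and 166.3 in wild-type females, and ran from 107.5 to 612.8 in the 6 males. Its mean was 124.6 ± 33.3 in females (n = 5) and 301.5 ± 188 in males (n = 6), a log2 difference of -1.25 (SE 0.37, 95% interval -2.05 to -0.45). This did not pass after adjustment (limma adjusted p = 0.287), and the ranges of the sexes overlapped. Atp1b2 was the 1 member of 3 with an unadjusted p under 0.05, against 12.4% of all probe sets, while 0% of all probe sets passed the adjusted threshold. Without the 2 male null mice the difference was -0.64 (limma adjusted p = 0.693), so the size of the difference rested in part on these arrays. Atp1b1 differed by -0.14 (limma adjusted p = 0.729) and Atp1b3 by 0.0081 (limma adjusted p = 0.987).

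To set the glial against the neuronal isoform, the log2 signal of Atp1b1 was subtracted from that of Atp1b2 on each array. The 2 probe sets bind with different strength, so the value shows unequal change between brains and not which gene is more abundant. It was -1.30, -1.30 and -1.99 in female null brains and -0.27 and 0.59 in male null brains. It was -1.97 and -1.13 in female wild-type brains and -1.42, -1.33, -0.27 and -0.87 in male wild-type brains. The highest value was that of a male null brain, and the other male null brain lay level with the highest wild-type one. The mean was -0.85 ± 1.02 in null brains and -1.17 ± 0.57 in wild-type brains (SD, n = 5 and 6), a gap smaller than either spread. The gap of 0.31 turned to -0.051 without null mouse 2 and to -0.37 without the 2 male null mice. The last value sets female null brains against wild-type brains of both sexes. Within females the mean was -1.53 ± 0.40 in null and -1.55 ± 0.59 in wild-type brains (SD, n = 3 and 2). By sex it was -1.54 ± 0.41 in females and -0.60 ± 0.76 in males, with overlap. Among wild-type brains it was -0.76 ± 0.44 with LT numbers and -1.57 ± 0.35 with B4 numbers, with no overlap, so Atp1b2 stood higher in LT brains by more than Atp1b1 did.

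**Figure D4:**
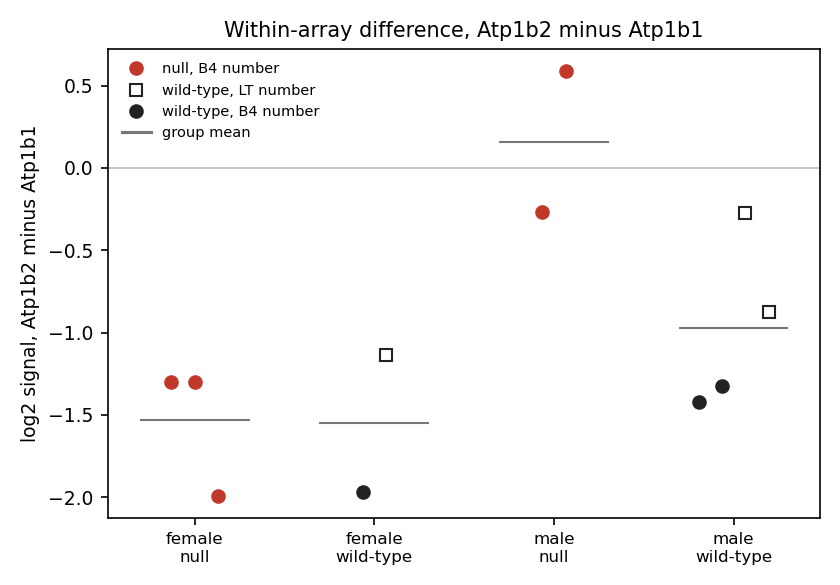
Log2 signal of Atp1b2 minus that of Atp1b1 on each array, by sex and genotype, with open squares for wild-type mice with LT numbers and lines for group means. The male null brains lie at -0.27 and 0.59, and among wild-type brains all open squares (-1.13 to -0.27) lie above the filled points (-1.97 to -1.33).

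Markers of the cell types that carry these isoforms were summed per array. Of 16 astrocyte markers 13 had a probe set, 12 of them above the filter, and of 16 neuronal markers 15 had one, 14 above the filter, so both cell types were present in the sampled tissue as labelled. The summed astrocyte signal was 17773.8 to 20019.6 in null brains and 17621 to 20486.9 in wild-type brains, and it was 17621 to 20486.9 in LT and 18859.4 to 19789.8 in B4 wild-type brains. In males 3 of the 12 tested astrocyte markers passed as higher and 2 as lower in null brains, where 32.6% of all probe sets passed in either direction. The summed neuronal signal was 21898.1 to 22206.8 in male null brains, 18107.8 to 19221.8 in female null brains and 14698.3 to 18417.9 in wild-type brains. In LT wild-type brains it was 14698.3 to 17343.5, below the 17651.1 to 18417.9 of B4 wild-type brains, while Atp1b1 was higher in LT brains. In males 9 of the 14 tested neuronal markers passed as higher and 1 as lower in null brains, against the same 32.6%. Microglial markers, 9 of 10 with a probe set, summed to 2215.8 to 2586 in male null brains, 1687.7 to 1950.3 in female null brains and 1804.8 to 2214.4 in wild-type brains. The male null brains were highest, 1 of them only just (2215.8 against 2214.4). The microglial markers also summed to 1965.4 to 2214.4 in LT against 1804.8 to 1918.1 in B4 wild-type brains. In males 4 of the 8 tested passed as higher and 2 as lower in null brains, against the same 32.6%. Endothelial markers, 9 of 10 with a probe set, summed to 1500 to 1672.9 in LT against 1126.4 to 1232.4 in B4 wild-type brains. These microglial and endothelial sums were thus higher in LT brains without overlap. Of the tested markers, 5 of 8 microglial and 4 of 9 endothelial had a positive LT minus B4 difference, against 46.1% of probe sets. It was positive for 8 of 8 oligodendrocyte, 4 of 12 astrocyte and 5 of 14 neuronal markers. Oligodendrocyte sums overlapped, at 7002.3 to 8940 in LT and 5931.5 to 7835.6 in B4 wild-type brains. Choroid plexus markers, 4 of 8 with a probe set, summed to 1438 to 1521.3 in male null brains against 1929.4 to 2915.2 in wild-type brains. No marker was at 0, and the part of cell composition in the values of the pump genes was not tested.

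Beside the β subunits, 8 of 19 listed partners and relatives of the pump had a probe set and 6 were tested. These were the FXYD proteins, small membrane proteins that tune the pump, the gastric proton-potassium pump Atp4a and Atp4b, and Nkain1, which binds the β1 subunit. Between genotypes none of the 6 passed. Their median log2 difference was 0.20, against 0.03 over all probe sets tested. An unadjusted p under 0.05 was found for 0 of 6, against 23.1% of all probe sets, with Nkain1 just above it (limma unadjusted p = 0.0502). Fxyd7, a regulator found in brain, averaged 116.8 ± 35.2 in null brains and 86.1 ± 32.8 in wild-type brains, a log2 difference of 0.39 (SE 0.28, limma adjusted p = 0.413). The smallest p-values were those of Nkain1 (-0.43, limma adjusted p = 0.215) and Fxyd1 (-0.24, limma adjusted p = 0.405), both lower in null brains. Fxyd2, the γ subunit best known from kidney, differed by 0.24, Fxyd5 by 0.23 and Atp4a by 0.17 (limma adjusted p = 0.739, 0.645 and 0.762). Fxyd3 and Atp4b did not pass the filter.

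In males 2 of the 6 fell in null brains, and none rose, against 32.6% of all probe sets that passed there in either direction. Nkain1, on its brighter probe set, had 89.1 ± 22.1 in male null brains (n = 2) and 168.05 ± 16.1 in male wild-type brains (n = 4), a log2 difference of -0.93 (limma adjusted p = 0.00233). That probe set too carries the suffix f, and the dimmer one did not follow, at 131.25 ± 31.6 in male null brains and 115.3 ± 15.03 in male wild-type brains. Fxyd1, or phospholemman, had 306.25 ± 14.6 in male null brains and 472.75 ± 77.1 in male wild-type brains, a log2 difference of -0.61 (limma adjusted p = 0.0191). For Nkain1, 1 of the 6, the interaction passed too (1.06, limma adjusted p = 0.0203), as it did for 15.9% of all probe sets. For sex and for the letters none of the 6 passed, with 1 of 6 at an unadjusted p under 0.05 in each, against 12.4% of all probe sets for sex and 11.1% for the letters. These were Fxyd5 for sex (-0.66, limma adjusted p = 0.372) and Fxyd1 for the letters (-0.45, limma adjusted p = 0.403).

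Of the other P-type ATPases, which share the phosphorylated intermediate of the pump, 12 of 20 had a probe set and 11 were tested. Between genotypes none passed (2 of 11 at an unadjusted p under 0.05, against 23.1% of all probe sets), with a median log2 difference of 0.10. The smallest p-values were those of the phospholipid flippase Atp8a1 (1.02, limma adjusted p = 0.0873), the plasma membrane calcium pump Atp2b2 (0.96, adjusted p = 0.131) and Atp9a (0.38, adjusted p = 0.248). In males 3 of 11 rose in null brains and none fell, a share below that 32.6%: Atp2b2 by 1.78 (limma adjusted p = 0.0016), Atp8a1 by 1.45 (adjusted p = 0.00446) and the lysosomal Atp13a2 by 1.15 (adjusted p = 0.0216). The interaction passed for 2 of 11, near the 15.9% of all probe sets: Atp2b2 (-1.72, limma adjusted p = 0.031) and Atp13a2 (-1.61, adjusted p = 0.044). The median difference of the list in males was 0.53, against 0.05 over all probe sets.

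Of 24 channels and transporters of the same ions or driven by the sodium gradient, 13 had a probe set and 12 were tested. None passed between genotypes (3 of 12 at an unadjusted p under 0.05, near the 23.1% of all probe sets), and the median was 0.25. The smallest p-values were those of the glutamate transporter Slc1a1 (0.77, limma adjusted p = 0.108), the glycine transporter Slc6a9 (0.36, adjusted p = 0.168) and the potassium-chloride cotransporter Slc12a4 (0.55, adjusted p = 0.171). In males 4 of 12 passed, close to the 32.6% of all probe sets that passed there. The same 3 rose in null brains, Slc1a1 by 1.36 (limma adjusted p = 6.42e-04), Slc6a9 by 0.64 (adjusted p = 0.00711) and Slc12a4 by 0.82 (adjusted p = 0.0436). The sodium-potassium-chloride cotransporter Slc12a2 fell by 0.63 (adjusted p = 0.0128). The interaction passed for 1 of 12, Slc1a1 (-1.23, limma adjusted p = 0.0218), against 15.9% of all probe sets. For the letters none of the 12 passed, and 3 of 12 had an unadjusted p under 0.05, against 11.1% of all probe sets. The LT minus B4 difference was positive for 5 of 12, against 46.1%. The smallest p-values were those of Slc12a5, the neuronal chloride extruder (1.35, limma adjusted p = 0.089), Slc12a4 (0.65, adjusted p = 0.294) and Slc4a4 (-0.46, adjusted p = 0.375). Without the 2 male null mice Slc12a5 was the 1 of 12 to pass (adjusted p = 0.0434), when 2.42% of all probe sets did.

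**Figure D5:**
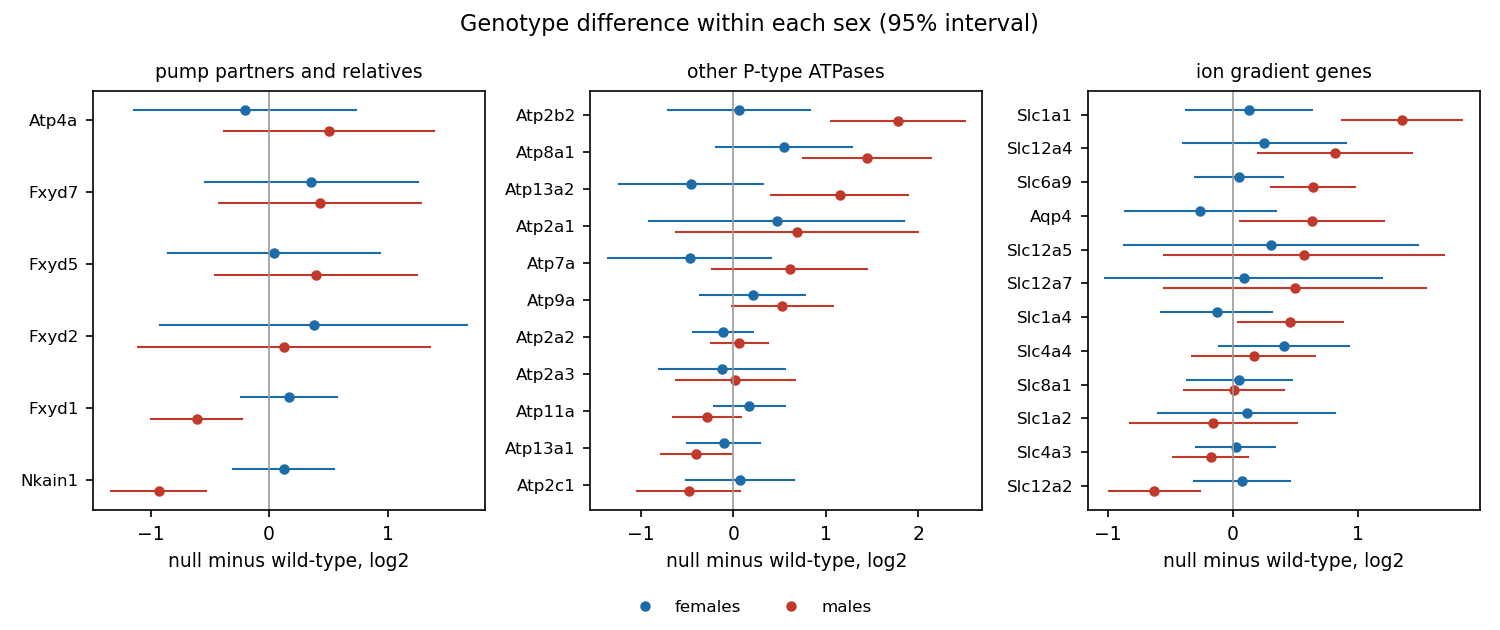
Genotype difference of log2 signal (limma estimate and 95% interval) within females and within males for the tested genes of the 3 lists. In males Nkain1 (-0.93) and Fxyd1 (-0.61) lie lowest among the pump partners, Atp2b2 (1.78) and Slc1a1 (1.36) highest in the other lists, and the female intervals of these genes reach across 0.

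Likeness of pattern was measured as Pearson's r of log2 signal across the brains, as a description over arrays that share 1 scaling and include the 2 male null arrays. Atp1b1 was most like 2 probe sets of Ubqln1, an adaptor of protein degradation (r = 0.95 and 0.91 over 11 arrays), and Plekho1 (0.93). Over the 9 arrays without male null mice these were 0.96, 0.91 and 0.94, and Rab3ip came in at 0.94 (0.88 over 11). Atp1b2 was most like Arhgef2 (0.98), the small GTPase Arf3 (0.97) and the deadenylase Cnot7 (0.97). Without the male null arrays these were 0.96, 0.95 and 0.94, and the adhesion molecule Cadm1 reached 0.94 (0.82 over 11). Atp1b3 was most like Tmem160, the chemokine Cxcl12 and Btbd17, each at 0.94. Without the male null arrays the closest were the transcription factor Sox4 (0.99), Ap4s1 (0.98) and Imp3 (0.97), with 0.82, 0.87 and 0.89 over 11.

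Among the members themselves r was 0.69 for Atp1b1 with Atp1b2, 0.37 for Atp1b1 with Atp1b3 and 0.06 for Atp1b2 with Atp1b3 over 11 arrays. Over the 9 arrays without male null mice it was 0.72, 0.68 and 0.82. The 3 genes followed one another across the 9 brains, in which the LT brains were high, while Atp1b2 and Atp1b3 parted in the 2 male null brains.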

How the data were processed

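The deposited values were 1 linear intensity per probe set and array, which the authors computed by MAS5, according to the submitters' processing notes. Its version and settings are not given in the sources used here. Intensities under 3.1 (the 10th percentile of the table) were raised to it before log2 was taken. Probe sets under the 40th percentile of mean log2 signal (4.69) and 66 controls were not tested. The number of arrays limits the precision of every value.

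limma 3.58.1 in R 4.3.3 (lmFit and eBayes, with the variance allowed to follow the signal) was fitted to all 7453 probe sets, with Benjamini-Hochberg adjustment over them and an adjusted threshold of 0.05. The genotype difference had sex as a covariate, the sex difference genotype, and the differences within each sex came from the interaction model. Tables were made with python 3.11.15, numpy 2.4.6, pandas 2.3.3 and matplotlib 3.10.9. The scripts were tested on simulated data.

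Members, lists and tests were chosen with earlier results of these data known. A gene with several probe sets counted in a list by its brightest one. All members and all pump partners with a probe set are named. Of the other lists, the genes that passed, or otherwise the 3 with the smallest p, are named between genotypes, in males and for the interaction. For the letters this was done only for the channels and transporters, and the sex difference of these other lists is not given. Likeness names the 3 probe sets with the highest correlation. The comparison by letters, and the alternatives to the differences within each sex, were added after the data were seen. Alternatives were other scalings, floors and filters, other covariates, subsets of mice and each mouse left out in turn. Coordinates and promoters are from RefSeq (GRCm38.p6).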

Additional observations from a re-analysis of the deposited data

How the results depend on the processing

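No paired analysis was made, because the labels used here do not give the litter of each mouse. The count of probe sets past the threshold was 2 for genotype, and 1 with quantile normalization, median centring or no covariate, 0 with no signal filter, age, the Gapdh ratio, without the male null mice or in B4 mice without them, and 26 in B4 mice. Leaving out each mouse gave 1 to 877, the highest without wild-type mouse 5, with 195 without wild-type mouse 3. In males it was 2433, and 1217 to 2486 with each mouse left out. In females it was 0 (308 at an unadjusted p under 0.05), 1 after median centring or in B4 mice, and 0 to 4 with each mouse left out. For sex it was 0 (926 at an unadjusted p under 0.05), 2 with the floor at the 20th percentile, 3 with no filter, 10 in B4 mice and 0 to 30 with each mouse left out. For the interaction it was 1187, and 461 to 1406. For the letters it was 35, then 0 with quantile normalization, 65 in wild-type mice, 180 without the male null mice and 0 to 78 with each mouse left out.

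Atp1b1 turned sign after median centring for genotype (-0.039), in males (-0.060), in females (-0.015), for sex (0.041) and for the interaction (0.044). In males it passed with letters as a block (0.49, limma adjusted p = 0.0417) and in B4 mice (0.58). Atp1b3 turned sign for genotype with the Gapdh ratio (0.045) and in B4 mice without the male null mice (0.021), and in females with letters as a block (0.15) and in B4 mice (0.080). For sex it was 0.0081, and -0.071 with quantile normalization, -0.070 with no covariate, -0.15 with age, -0.16 with the Gapdh ratio and -0.19 without the male null mice.

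In males Atp1b2 no longer passed after median centring (1.07) or without the filter (1.36), and Atp1b3 passed after centring (-0.77). With letters as a block the male Atp1b2 difference was 2.03 and passed (limma adjusted p = 7.6e-05). The Atp1b2 difference by letters passed in wild-type mice alone and without the male null mice (1.34 in both). With each mouse left out, it ran from 1.18 to 1.74 by letters, from 0.97 to 1.74 in males and from -0.43 to 0.57 in females. Atp1b1 ran from 0.09 to 0.40 in males and from -0.034 to 0.14 in females. Atp1b3 ran from -0.67 to -0.39 in males, from -0.23 to 0.080 in females, from -0.070 to 0.12 for sex and from 0.26 to 0.59 for the interaction. The within-array difference of null and wild-type means was 0.31, and -0.63 on the dim probe sets. Without the male null mice it was -0.37, with only females left in the null group. With each mouse left out it ran from -0.051 to 0.60 (lowest without null mouse 2). The cause of these changes was not tested.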
